A study of Mus musculus with 8 samples.

Results

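The 5 genes Reg3a, Reg3b, Reg3g, Reg1 and Dmbt1 encode secreted defence proteins of the intestinal epithelium, and they were followed among the 19269 genes tested. They had been picked because, in these same arrays, the set had been seen to fall with CHIR99021 and to rise with VPA. Each had 1 probe with 1 spot, matched to its symbol through the RefSeq accession of the probe, so every value of a member rests on a single spot per array. All 5 passed the filter on dim probes, and all were well above background in both dyes on all 8 arrays, with 0 saturated spots.

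Reg proteins are small secreted C-type lectin-like proteins. Reg3g and Reg3b are bactericidal lectins that enterocytes and Paneth cells release into the gut lumen, where they keep bacteria away from the epithelial surface, and interleukin-22 acting through STAT3 is a known inducer of both. Reg1, first known from regenerating pancreas, and Dmbt1, a large scavenger-receptor protein of mucosal surfaces that binds bacteria and trefoil peptides, are further products of the same epithelium.

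The material was messenger RNA of mouse small intestinal organoids, cultures of crypt epithelium grown in Matrigel. Organoids of 2 wild-type lines, each established separately, were kept for 6 days under control conditions, with 3 µM CHIR99021 (an inhibitor of the kinase GSK3), with 1 mM valproic acid (VPA, an inhibitor of histone deacetylases), or with both at those doses. Each of the 4 groups was read once per line on two-colour arrays that carried the sample in Cy5 and control RNA of the same line in Cy3, with no dye swap, so that the control arrays set control RNA against control RNA. Line and slide coincide, and each treatment lay at the same position on both slides, so that position and treatment cannot be told apart. Between 60.6% and 64.6% of spots were well above background in Cy5. All 8 epithelial markers were detected on all arrays, while the fibroblast markers Dcn and Lum were detected on 0 arrays, Ptprc of leukocytes on 6 and Il22 on 1.

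Reg3a, Reg3b, Reg3g and Reg1 lie close together on chromosome 6, in the order Reg3b, Reg3a, Reg1 and Reg3g, with Reg3d and Reg2 between them, and Dmbt1 lies on chromosome 7. The 250 bases before the annotated start of these 4 genes are shown because these members of 1 gene cluster had different values with VPA. The sequences come from RefSeq (GRCm38.p6) and run 5′ to 3′ on the strand of the gene, at chr6:78380459-78380708 (plus strand) for Reg3a, chr6:78370635-78370884 (plus) for Reg3b, chr6:78468875-78469124 (minus) for Reg3g and chr6:78425733-78425982 (plus) for Reg1. Capitals mark matches, on either strand, to the letters ATCAAAG (TCF, the partner of beta-catenin), TTCNNNGAA (STAT), TGANTCA (AP-1) and TATAAA (the core promoter box named after its first letters).
Reg3a: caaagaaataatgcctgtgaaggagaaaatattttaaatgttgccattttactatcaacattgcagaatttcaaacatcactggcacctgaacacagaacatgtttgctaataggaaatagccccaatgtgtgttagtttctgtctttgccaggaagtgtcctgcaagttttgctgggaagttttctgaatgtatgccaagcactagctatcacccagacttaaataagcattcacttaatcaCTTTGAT
Reg3b: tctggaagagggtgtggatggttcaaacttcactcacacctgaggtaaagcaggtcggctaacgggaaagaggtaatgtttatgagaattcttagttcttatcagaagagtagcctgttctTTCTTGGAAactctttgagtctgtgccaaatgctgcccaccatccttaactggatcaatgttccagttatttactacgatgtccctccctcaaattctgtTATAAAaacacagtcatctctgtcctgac
Reg3g: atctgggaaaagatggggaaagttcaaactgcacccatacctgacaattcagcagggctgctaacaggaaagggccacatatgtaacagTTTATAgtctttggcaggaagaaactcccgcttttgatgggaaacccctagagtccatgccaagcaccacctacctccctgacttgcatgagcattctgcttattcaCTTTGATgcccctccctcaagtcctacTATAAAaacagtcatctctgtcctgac
Reg1: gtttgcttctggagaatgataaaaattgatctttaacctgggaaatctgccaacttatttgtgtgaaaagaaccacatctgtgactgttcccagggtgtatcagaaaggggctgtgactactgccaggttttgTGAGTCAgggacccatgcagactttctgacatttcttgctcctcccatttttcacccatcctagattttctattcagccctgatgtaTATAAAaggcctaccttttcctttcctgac

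Over the 300 bases from 250 before to 50 after the start, the Reg3b and Reg3g windows were identical at 69.1% of 304 aligned columns, Reg3a and Reg3g at 69.4% of 258, and Reg3a and Reg3b at 61.9% of 260. The identity of unrelated windows was not measured, and Reg1 gave no long alignment with a Reg3 gene. The TCF letters occurred on the minus strand in Reg3g at -54 to -48 and in Reg3a at -7 to -1, counted from the start, and in 3.73% of all 32851 windows of that length. The STAT letters occurred in Reg3b at -129 to -121, against 8.3% of all windows. The AP-1 letters occurred in Reg1 at -117 to -111, against 7.81% of all windows. TATAAA lay just upstream of the start in Reg3b (-29 to -24), Reg3g (-27 to -22) and Reg1 (-30 to -25) and was found in 13.6% of all windows. A match is a run of letters and was not tied to binding here.

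All values below are log2 ratios of Cy5 over Cy3 after normalisation, and changes are such a ratio minus the control ratio of the same line. Changes with CHIR99021 and with VPA chose the members, so they are described without a test, and the combination against control, which shares the control arrays with both, is the comparison that was tested. In bulk RNA, fewer cells of a type and less RNA per cell cannot be told apart. With 2 lines per group, the p-values speak to the variation between this pair of lines and no further.

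With CHIR99021 alone all 5 members were lower than control in both lines. The lines lay closest for Reg3b and farthest apart for Dmbt1. Reg1 had log2 ratios of 0.30 in line 1 and 0.22 in line 2 under control conditions, and of -5.35 and -5.20 after CHIR99021, a mean 46.3-fold lower. Reg3b went from 0.06 and -0.06 to -5.49 and -5.51, which is 45.4-fold lower. As in all 5 members, which were chosen by this comparison, the 2 CHIR99021 values lay below the 2 control values. Reg3g went from 0.49 and 0.56 to -2.70 and -2.29 (8.11-fold lower), and Reg3a from 0.21 and 0.25 to -2.53 and -2.69 (7.13-fold lower). Dmbt1 went from -0.09 and -0.11 to -2.71 and -2.00 (4.76-fold lower). The control ratio of Reg3g was the farthest from 0 of the 5, although both dyes held control RNA there. Of all genes tested, 196 (1.02%) were lower past 2-fold with CHIR99021 in both lines, and limma called 1.01% lower and 0.114% higher.

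**Figure D1:**
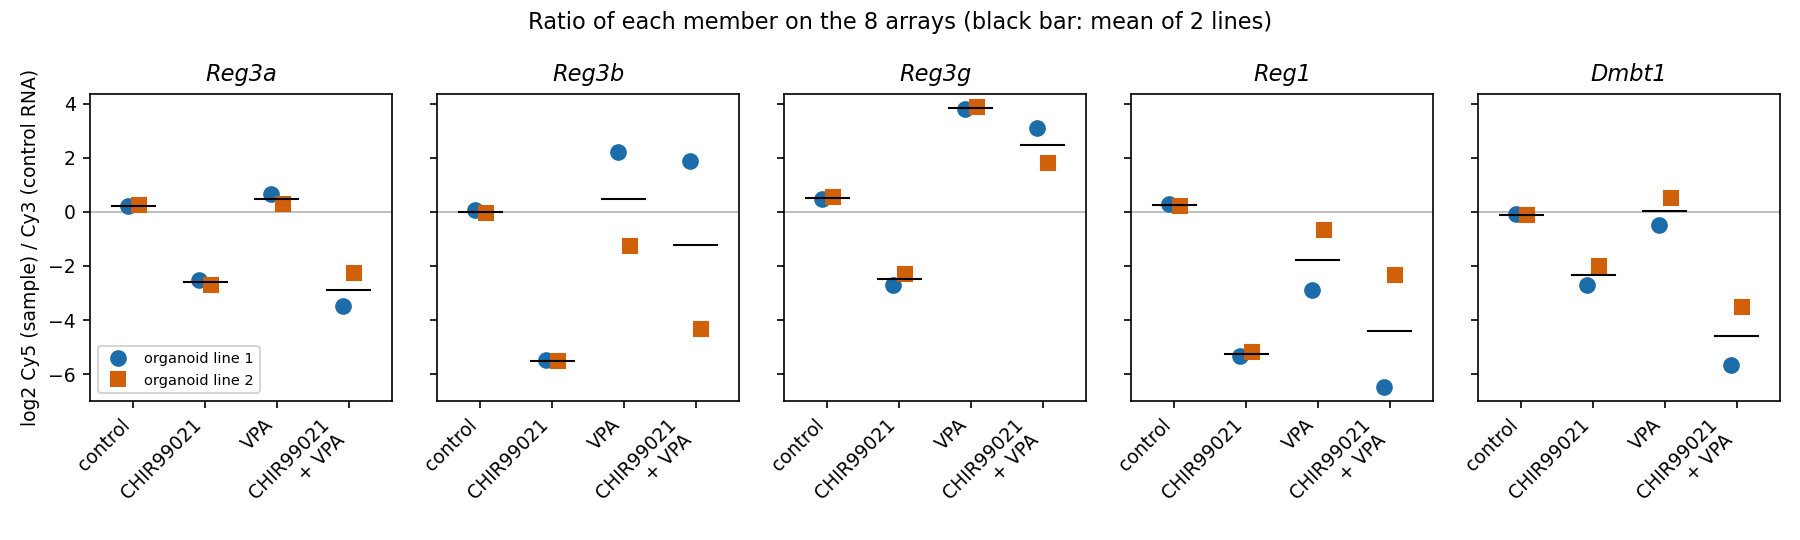
Log2 ratio of Cy5 (sample) over Cy3 (control RNA of the same line) for the 5 members on the 8 arrays, with a point per array, circles for organoid line 1, squares for line 2 and a black bar for the mean of the 2 lines. All members are low with CHIR99021 in both lines, whereas with VPA and with the combination the lines part for Reg3b (2.22 and -1.26, 1.90 and -4.32) and Reg1.

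The members did not share a response to VPA alone. Reg3g had log2 ratios of 3.80 and 3.87, a change of 3.31 in each line, or 9.91-fold higher than control. Reg3g was the 1 member that was higher past 2-fold in both lines. Reg3a, at 0.66 and 0.31, differed from control by 0.45 in line 1 and 0.06 in line 2. Reg3b was at 2.22 in line 1 and -1.26 in line 2, a change of 2.16 in one line and of -1.20 in the other. Reg1 was lower in both lines, at -2.89 and -0.66, with changes of -3.19 and -0.88. Dmbt1, at -0.48 and 0.52, was slightly below control in line 1 and slightly above it in line 2. The description of the set as higher with VPA therefore held for Reg3g past 2-fold, for Reg3a by a small margin, and for the others in 1 line or in neither.

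The counts of this paragraph describe the values that chose the members, or share arrays with them, and nothing is read from them about the members. Lower past 2-fold with CHIR99021 and higher past 2-fold with VPA, each in both lines, were 6 of 19269 genes (0.0311%), namely Reg3g, the fatty-acid-binding proteins Fabp1 and Fabp2, the water channel Aqp3, Tiam2 and Otop3. The lines moved past 2-fold in opposite directions with VPA for 4 genes (0.0208%), which were Reg3b, Maf, Cldn4 and Slc49a4. For the combination there were again 4 such genes (0.0208%), Reg3b with Prss23, Agr3 and Slamf9. Reg3b was the gene found in both sets. These genes were named after their values were seen.

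When both compounds were given together, Reg3g stayed above control while Reg3a and Dmbt1 were far below it. By limma over all 8 arrays, 3 of 5 members passed an adjusted p of 0.05, against 15.5% of all genes tested (8.41% higher and 7.08% lower), and all of the members had been picked on arrays that include the same controls. The calls of Reg3g and Dmbt1 were lost without the control array of line 1, and likewise without that of line 2. Each of these fits leaves 1 control array, and calls over all genes also became fewer in them. The changes themselves stayed close, at 1.91 and 1.98 for Reg3g (1.94 with both controls) and -4.48 and -4.50 for Dmbt1 (-4.49 with both).

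Reg3a had log2 ratios of -3.49 in line 1 and -2.28 in line 2 with the combination (-2.89 ± 0.86, SD, n = 2), against 0.23 ± 0.027 (SD, n = 2) in control. Both lines were below both control arrays, and the change of -3.11 ± 0.36 (SE), 8.65-fold lower, had an adjusted p of 0.00334 by limma. Reg3a was called in all 20 alternative analyses, with adjusted p from 0.00036 to 0.0432.

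Dmbt1 had ratios of -5.66 and -3.52 with the combination, a change of -4.49 ± 0.68 (SE), or 22.5-fold lower, with an adjusted p of 0.00793 by limma. Its 2 values lay below all 6 other Dmbt1 values, those with CHIR99021 included. The call was lost without the control array of line 1 (adjusted p = 0.0722) or of line 2 (adjusted p = 0.0697).

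Reg3g had ratios of 3.11 and 1.82 with the combination, above both control values and below both values with VPA alone. Its change of 1.94 ± 0.38 (SE), 3.84-fold higher, had an adjusted p of 0.0187 by limma, with 2.62 in line 1 and 1.26 in line 2. The call was lost when only the 2 compared groups were fitted (adjusted p = 0.0575) and without the control array of line 1 (adjusted p = 0.126) or line 2 (adjusted p = 0.113), while the change kept its sign in all 20 alternatives.

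Reg1 had ratios of -6.47 in line 1 and -2.33 in line 2. The lines did not overlap with control, but they lay so far apart that the change of -4.66 ± 1.29 (SE), 25.2-fold lower, had an adjusted p of 0.0564 by limma and was not called. Pairing the samples by line, as a replicate block, gave a call (adjusted p = 0.0158), as did the fit without the combination array of line 2 (-6.73, adjusted p = 0.00713). Only 0.0259% of genes had a larger gap between lines in this comparison.

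Reg3b had ratios of 1.90 in line 1 and -4.32 in line 2, so its lines stood on opposite sides of control. The mean change of -1.21 ± 1.95 (SE) had an adjusted p of 0.740 by limma and describes neither line. It was 1.90 without line 2 of the combination and -4.32 without line 1. The gap between lines, from 1.84 to -4.26, was the largest of all 19269 genes tested in this comparison.

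The combination is set beside the single compounds here as values per line without a test. Reg3b and Reg3g with both compounds lay above CHIR99021 alone and below VPA alone in both lines. Dmbt1 lay below both single compounds in both lines. Reg3a and Reg1 lay below both in line 1 and between them in line 2. Reg3g with both compounds was above CHIR99021 alone by 5.82 in line 1 and 4.11 in line 2, and it differed from VPA alone by -0.69 and -2.05. Dmbt1 was lower than with CHIR99021 alone, by -2.95 and -1.53, although VPA alone had moved it little. Its combination change was -2.57 and -2.16 away from the sum of the single-compound changes, the one member below that sum in both lines. Reg3b lay above the sum by 5.23 and 2.39, Reg1 by 2.07 and 3.75, and Reg3g by 2.51 and 0.80. Reg3a differed from the sum by -1.42 in line 1 and 0.35 in line 2, and from CHIR99021 alone by -0.97 and 0.41, so the lines differed in sign.

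**Figure D2:**
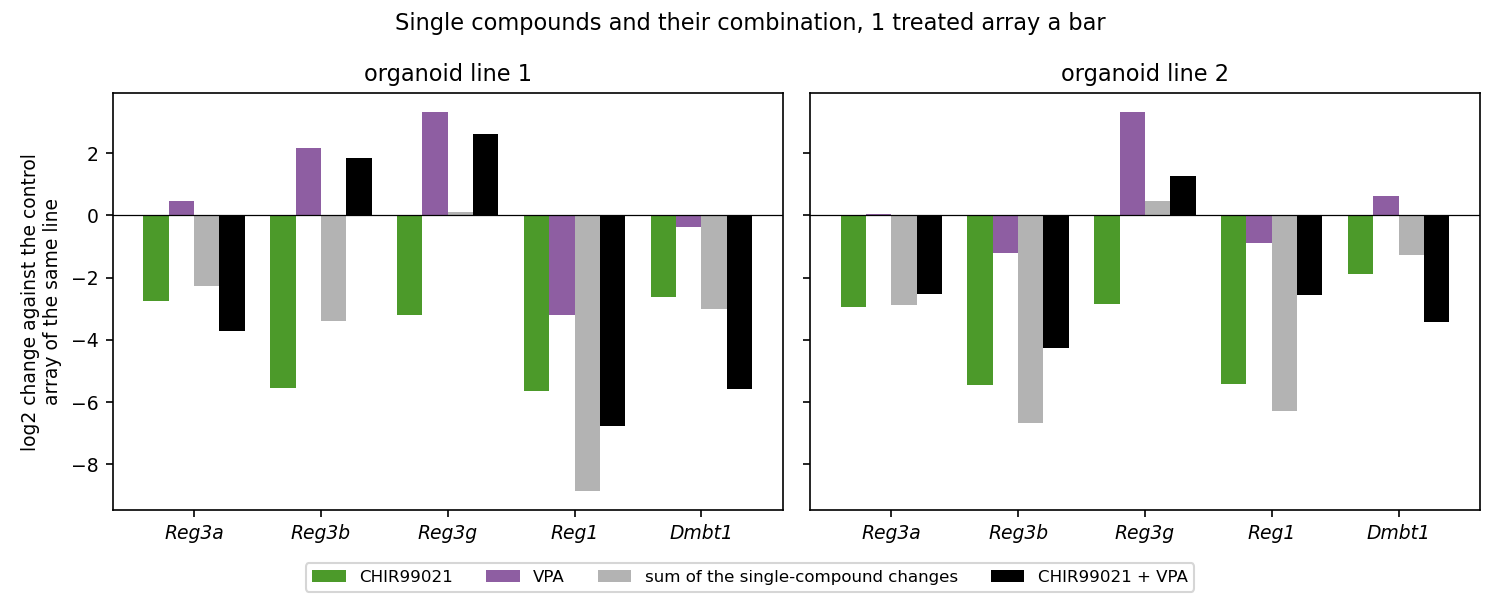
Log2 change against the control array of the same line for CHIR99021, VPA, the sum of these 2 changes, and both compounds together, with a bar per treated array and a panel per organoid line. Dmbt1 with both compounds falls below the sum of its single changes in both lines, Reg3g stays above 0 in both, and Reg3b is above 0 in line 1 (1.84) and far below it in line 2 (-4.26).

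The Cy3 dye gives a further view of the members, since the 4 arrays of a line carried the same control RNA in it. In line 1 the Cy3 signal of Reg3b was not constant. Its median spot intensity in Cy3 was 47430 on the control array and 74768 on the CHIR99021 array, but 17909 on the VPA array and 22154.5 on the combination array. The normalised Cy3 level thus spanned 1.87 log2 units, a range that 0.0519% of genes exceeded, against a median range of 0.149. The Cy3 level was lowest on the 2 arrays where the Cy5 level was highest. In line 2 the Cy3 range of Reg3b was 0.17. Reg3g likewise spanned 1.08 in line 1 (0.358% of genes exceeded it) and 0.18 in line 2, again lower where Cy5 was high. Dmbt1, Reg3a and Reg1 spanned 0.28 to 0.52 in line 1 and 0.39 to 0.68 in line 2, where the median range was 0.138. The range of Reg1 was exceeded by 3.55% of genes in line 1 and 1.82% in line 2. For Reg3a these shares were 15.7% and 5.22%, and for Dmbt1 11.9% and 5.15%. A reference that falls where the sample rises enlarges a ratio, and what made it fall was not tested.

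With the Cy5 level taken alone, Reg3b still stood apart between lines. Its change with VPA was 0.99 in line 1 and -1.18 in line 2, and with the combination 1.00 and -4.09. Reg3g was higher with VPA by 2.42 and 3.18 and with the combination by 2.14 and 1.31. The combination change of Reg3g had an adjusted p of 0.400 by limma on Cy5 alone, where the level difference between lines enters the spread, and of 0.0146 with the line as a replicate block. Reg3a (-2.83, adjusted p = 0.0243) and Dmbt1 (-4.64, adjusted p = 0.0380) were called on Cy5 alone without the block.

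**Figure D3:**
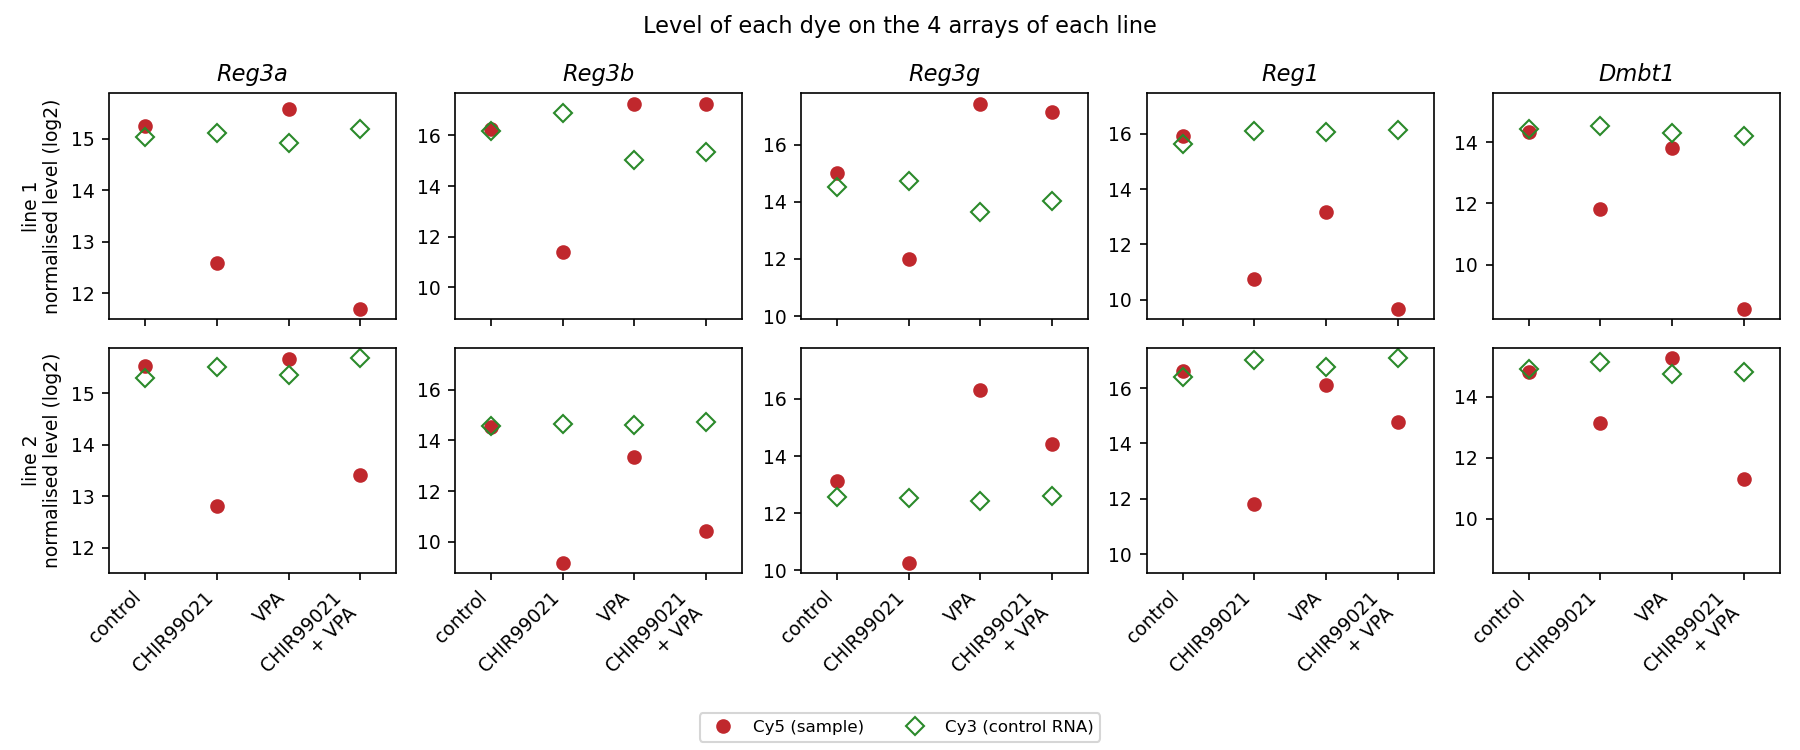
Normalised log2 level in Cy5 (sample, filled circles) and Cy3 (control RNA, open diamonds) for the 5 members on the 4 arrays of line 1 (top) and line 2 (bottom). Cy3 should be level across a row because the RNA is the same, and it is so within 0.18 for Reg3b and Reg3g in line 2, whereas in line 1 it spans 1.87 for Reg3b and 1.08 for Reg3g.

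The 2 lines also differed in the members in control RNA. By the mean Cy3 level over 4 arrays, Reg3g was 3.20-fold and Reg3b 2.31-fold higher in line 1. These means cover uneven readings in line 1, from 15.0 to 16.9 for Reg3b and from 13.6 to 14.7 for Reg3g. In line 2 the readings ran from 14.6 to 14.7 for Reg3b and from 12.4 to 12.6 for Reg3g. The size of the gap thus depends on the array. Reg1 was 1.79-fold, Dmbt1 1.45-fold and Reg3a 1.31-fold higher in line 2. A line gap larger than that of Reg3g was found for 1.24% of genes, and larger than that of Reg3b for 2.53%. Line and slide coincide, so these gaps were not tested. Line 1, the line with more Reg3b and Reg3g in control RNA, was also the line in which Reg3b was above control with VPA and with the combination.

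Among the members, Reg3a and Dmbt1 had the most similar profiles, with a root mean square difference of 1.03 log2 units over the 6 treated arrays and r = 0.91 over 8 arrays. Reg3b was most correlated with Reg3g (r = 0.75) and much less with Dmbt1 (r = 0.14). These correlations share the same 8 arrays and 4 treatments and are descriptions.

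The 8 genes named here came closest to the median profile of Reg3a, Reg3b and Reg3g over the 6 treated arrays. The nearest were Apol10a of the apolipoprotein L family (root mean square difference 1.23, r = 0.96 over 8 arrays), the protocadherin Pcdh19 (1.24, r = 0.96) and the differentiation-associated keratin Krt20 (1.25, r = 0.90). They were followed by Tmem37 (1.40), the planar polarity cadherin Celsr1 (1.43), the triglyceride-synthesis enzyme Mogat2 (1.48), the secreted protein Fam3b (1.49) and the aldehyde dehydrogenase Aldh3b1 (1.52). The distances are large beside the changes themselves. Reg3b (1.66), Reg3g (2.11) and Reg3a (2.37) each lay farther from this median than any of the 8 genes did. The median profile is thus not the profile of any 1 Reg3 member, and nearness to it is not likeness to a member. Apol10a changed by 1.38 in line 1 and 0.25 in line 2 with VPA, and by 0.52 and -1.56 with the combination. Its lines thus had opposite signs with the combination, and the same sign with VPA. Reg3b is part of the profile by which these genes were picked.

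**Figure D4:**
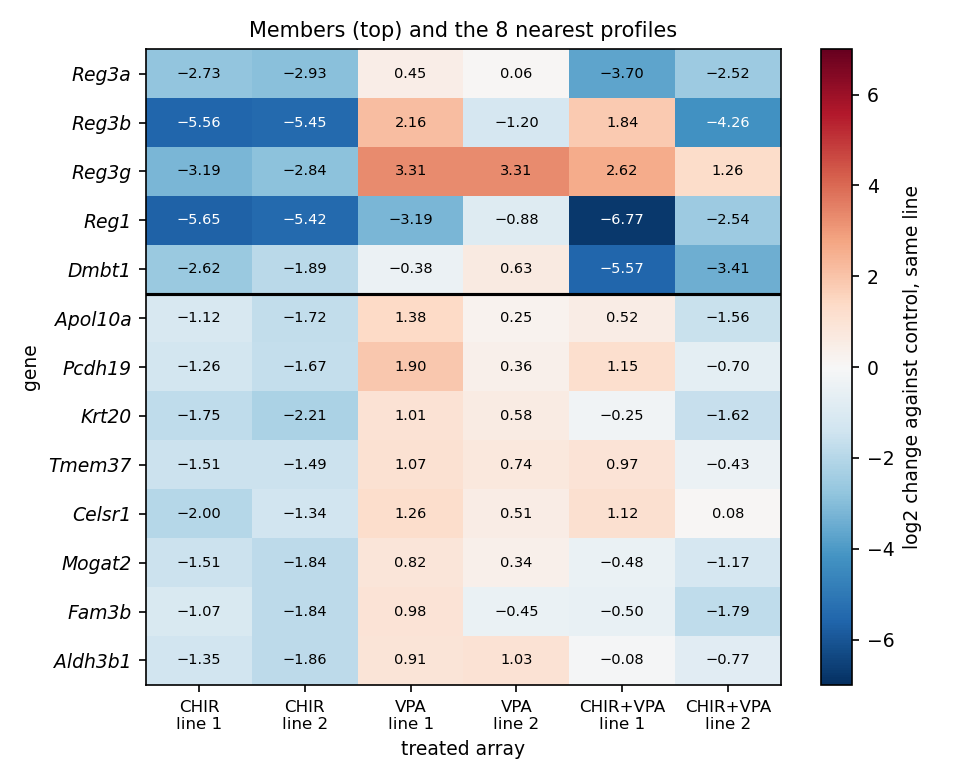
Log2 change against the control array of the same line on the 6 treated arrays (columns) for the 5 members (above the line) and the 8 genes nearest to the median profile of Reg3a, Reg3b and Reg3g, with red above control, blue below it and each value printed. All genes shown are below control with CHIR99021 in both lines, and the colours of the members differ from one another with VPA and with the combination.

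Of the Reg family outside the members, all 3 tested genes fell with the combination by limma, against 7.08% of all genes. Reg4, a secreted lectin of enteroendocrine and deep crypt secretory cells, fell by 2.93 ± 0.24 (SE, adjusted p = 0.00132). Reg3d, a neighbour of Reg3b, fell by 1.21 ± 0.14 (SE, adjusted p = 0.00339). Reg2 fell too (adjusted p = 0.0187), but it was well above background on 1 of the 2 combination arrays, and its call was lost without the control array of line 1 (adjusted p = 0.122) or line 2 (adjusted p = 0.125), without the combination array of line 2 (adjusted p = 0.0595) and with outlier spots kept in the background model (adjusted p = 0.0938). With VPA alone Reg3d rose by 0.64 (adjusted p = 0.0361), while Reg4 fell by 1.40 (adjusted p = 0.0189) and Reg2 also fell (adjusted p = 0.0474). Without the control array of line 1, that of line 2, or the VPA array of line 1, these VPA calls were all lost. Without the VPA array of line 2, or either CHIR99021 array, 1 of the 2 falls and 0 rises were called. With CHIR99021 alone Reg3d fell by 1.20 (adjusted p = 0.0236) and Reg2 fell (adjusted p = 0.0464) while well above background on 0 of the 2 CHIR99021 arrays, among 1.12% of genes called, and Reg4 changed by -1.23 (adjusted p = 0.0837). Both CHIR99021 calls were lost, with 0 genes called in all (1568 at an unadjusted p under 0.05), when spots marked as outliers were kept in the background model. Thus Reg3d had the direction of Reg3a in all of these comparisons, although Reg3a was higher with VPA by a small margin only. Reg3d shared the direction of Reg3g with each single compound but not with the combination.

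Of 28 other epithelial antimicrobial and defence products on the list, 13 were tested. With the combination their median change was -1.15 against 0.007 for all genes, of which 8.41% were called higher and 7.08% lower. By limma 0 of the 13 rose (0 also at an unadjusted p under 0.05) and 5 fell (9 unadjusted). They were the alpha-defensin Defa22 (-2.66, adjusted p = 0.000538), the goblet cell lectin Zg16 (-3.96, adjusted p = 0.0226), Ang4, a Paneth cell ribonuclease (-1.69, adjusted p = 0.00541), the immunoglobulin transporter Pigr (-1.15, adjusted p = 0.00396) and Lypd8 (-1.15, adjusted p = 0.0270), all by limma. Without the control array of line 1 the combination gave 1 call in this list, and without that of line 2 it gave 2. With VPA, under which Reg3g was highest, 0 of the 13 rose (1 at an unadjusted p under 0.05) and 2 fell (Defa22 and Pigr), against 10.8% of all genes called (6.57% higher and 4.28% lower). The iron-binding protein Ltf changed with VPA by 1.11 in line 1 and 0.95 in line 2, a mean of 1.03 that did not pass the test (adjusted p = 0.0544).

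Receptors and signalling proteins known to act upstream of Reg3 genes passed the test for a minority of genes. Of 27 tested, 3 rose and 2 fell with the combination, with a median of 0.08, a share of calls near that of all genes (15.5%). The pattern receptor Nod1 rose by 0.67 (adjusted p = 0.00516), the interleukin-6 co-receptor Il6st by 0.62 (adjusted p = 0.00638) and the kinase Jak1 by 0.63 (adjusted p = 0.0490). The kinase Irak1 fell by 0.94 (adjusted p = 0.00876), and Il18r1 fell while not well above background on either combination array. With VPA 3 of the 27 rose and 3 fell by limma, with a median of 0.08, against 10.8% of all genes called. Nod1 (0.54, adjusted p = 0.0154), Il17rc (0.45, adjusted p = 0.0411) and Il6st (0.39, adjusted p = 0.0365) were higher. Irak1 (-0.97, adjusted p = 0.0124), Rela (-0.50, adjusted p = 0.0183) and Il18r1 (-0.55, adjusted p = 0.0352) were lower. Il18r1 was well above background on 1 of the 2 VPA arrays. The interleukin-22 receptor Il22ra1 changed by 0.02 with VPA (adjusted p = 0.965), and Stat3 by 0.71 with VPA (adjusted p = 0.130). Of 14 tested STAT3-responsive genes, 0 rose (0 unadjusted) and 2 fell with the combination, Mcl1 by 0.49 (adjusted p = 0.0131) and Cebpb by 0.87 (adjusted p = 0.0375), again near the share of all genes (15.5%). Socs3, the feedback inhibitor of STAT3 signalling, changed with VPA by 0.34 in line 1 and -0.46 in line 2, a mean of -0.06 (adjusted p = 0.949), and with the combination by 0.20 and -0.90 (adjusted p = 0.625). The median of the list lay at 0.15 in line 1 and -0.28 in line 2 with VPA, and at 0.22 and -0.24 with the combination. With VPA 0 of the 14 rose (0 unadjusted) and 1 fell, against 6.57% of all genes called higher and 4.28% lower. Nothing is read from these counts in so short a list. All combination calls of the signalling and STAT3 lists were lost without the control array of line 1, and likewise without that of line 2.

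Binding partners and receptors of the members were tested for 8 genes. With the combination 0 rose (0 unadjusted) and 4 fell, with a median of -0.64, against 8.41% of all genes called higher and 7.08% lower. The trefoil peptide Tff3, to whose family Dmbt1 binds, fell by 1.97 with the combination (adjusted p = 0.000992), where Dmbt1 was also lowest. With CHIR99021 Tff3 changed by -0.19 (adjusted p = 0.691 by limma) and Dmbt1 by -2.25. With VPA Tff3 changed by -0.72 (adjusted p = 0.0283 by limma) and Dmbt1 by 0.12. With the combination Egfr fell by 0.63 (adjusted p = 0.00648) and Pigr by 1.15. Tff2 fell too, while not well above background on either combination array. Without the control array of line 1 the 4 calls became 1, and without that of line 2 they became 2. Lgals3 changed by 2.07 without passing the test (adjusted p = 0.182), and Extl3, a receptor described for Reg proteins, changed by 0.26 with VPA (adjusted p = 0.128).

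**Figure D5:**
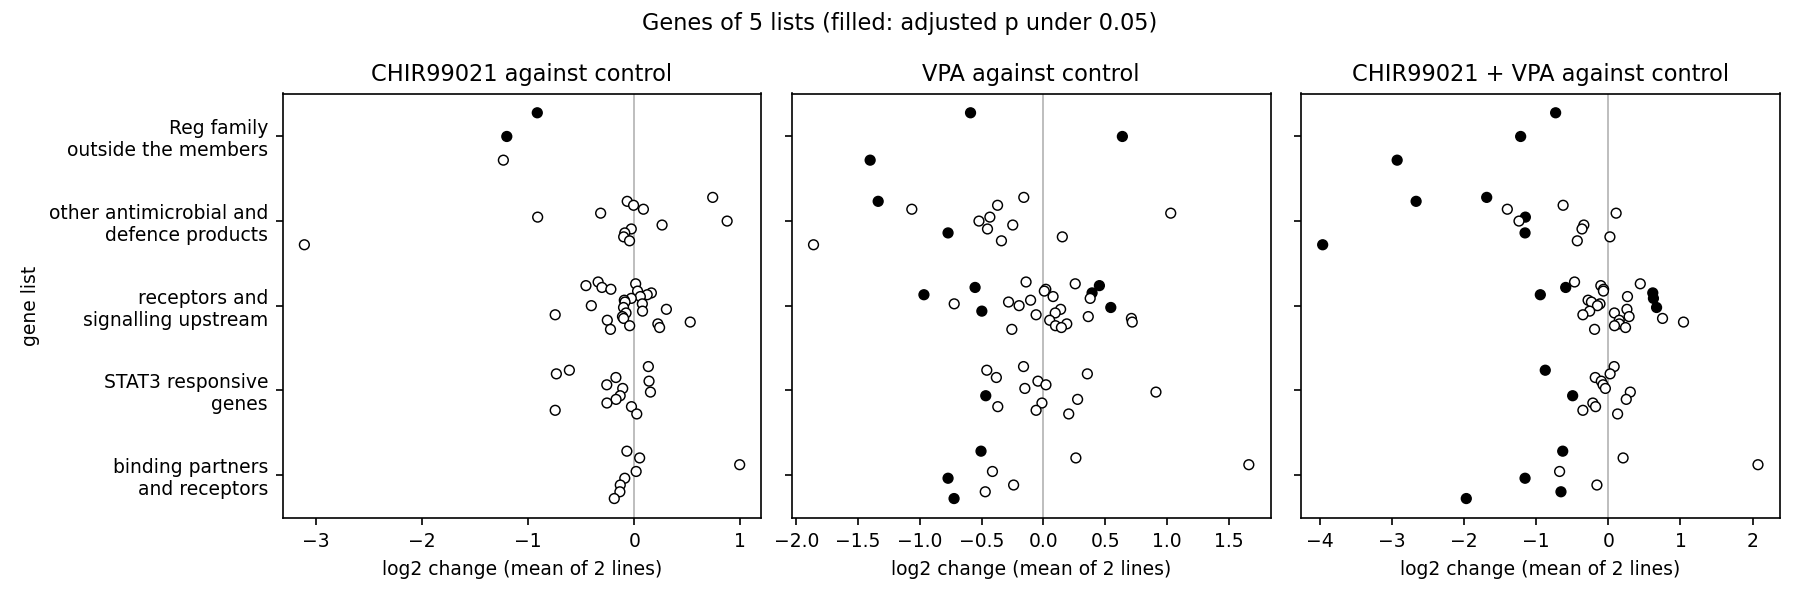
Log2 change against control (mean of 2 lines) of the tested genes of 5 lists, with a panel per treatment, a point per gene and filled points for an adjusted p under 0.05 by limma. With CHIR99021 the 2 filled points are Reg family genes, and with the combination the filled points of the defence list (5 of 13) all lie below 0.

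Markers of the epithelial cell types did not all move with the members. The log2 of the summed Cy5 level of 10 enterocyte markers, all detected on all arrays, stood at 17.9 in line 1 and 18.1 in line 2 for control. CHIR99021 arrays gave 16.6 in each line, VPA arrays 18.5 in each line, and combination arrays 15.9 and 16.6. The enterocyte markers differed among themselves with VPA, where by limma 1 of 10 rose (Mttp, 0.64, adjusted p = 0.0154) and 1 fell (Apoa1, -1.87, adjusted p = 0.0158), with a median of 0.14. Fabp1 (2.16, adjusted p = 0.0712) and Fabp2 (2.27, adjusted p = 0.0526) had the highest values and Lct (-2.48, adjusted p = 0.0973) the lowest. The sum of 6 Paneth markers went from 17.8 and 16.0 in control to 18.0 and 16.7 with CHIR99021, where all 5 members were lower, and to 17.4 and 15.1 with VPA and to 16.2 and 15.3 with the combination. The sum of 6 goblet markers went from 17.1 and 16.5 to 16.5 and 15.9 with CHIR99021, to 16.2 and 15.5 with VPA and to 15.0 and 14.3 with the combination. All 6 goblet markers fell with the combination by limma, against 7.08% of all genes. The part of cell type makeup in the members' values was not tested. Markers of pancreatic acinar cells, which also make Reg proteins, were detected for 4 to 7 of 9 genes per array, and their summed log2 level lay between 9.96 and 11.5 in all groups.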

How the data were processed

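Total RNA of 2 organoid lines under 4 conditions was read on 8 two-colour Agilent arrays, per the labels' protocols. Scanner output was made with Agilent Feature Extraction 10.5.1.1, and the deposited intensity values are median pixel brightness per spot and local background, on a linear scale before any background subtraction, per the file headers. The deposited log10 ratio is the software's own, background-subtracted and dye-normalised, and the authors' deposited table of log2 values equals it within 5e-10 (scale, centring and direction known). Its column medians lie from -0.0284 to 0.0361. Other deposited columns are flags (0 or 1) set by the software. The authors' gene calling was not used here.

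From the intensities, background was corrected with limma 3.58.1 in R 4.3.3 (normexp, offset 50, outlier spots left out of the model fit), ratios were normalised by loess within arrays with control spots at weight 0, and feature outliers and spots of uneven background were left out. The files used here hold median signals, which took the place of means. Of 41174 probes, 27479 were named through RefSeq accessions (GRCm38.p6). A gene was represented by its brightest probe and kept if both Cy5 readings of at least 1 group were well above background, and 78 genes with a missing value were dropped. All 4 groups were fitted together (lmFit, eBayes, 4 residual and 2.67 prior degrees of freedom) with Benjamini-Hochberg adjustment over 19269 genes at 0.05, after the code had been tested on simulated data. The number of arrays limits the precision. Probe sequences were not used here, so whether a Reg probe also binds the RNA of a related Reg gene was not tested.

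The members, gene lists and tests were chosen with earlier results of these data known, and so was the choice to leave outlier spots out of the background model. Named genes were all members, up to 4 genes per list with the smallest adjusted p in the combination against control plus those whose value was needed beside a member, and the 8 genes nearest to the median profile of Reg3a, Reg3b and Reg3g, leaving out accessions, clone names and predicted loci. Same-numbered samples come from the same organoid line, per the labels, and their deviations from the group means correlated across genes with r from 0.12 to 0.76 for the 6 pairs of groups. The fit without the line as a block is the one reported. No promoter entry for Dmbt1 was used here.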

Additional observations from a re-analysis of the deposited data

Results flagged for a closer look

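Reg3b moved in opposite directions in the 2 organoid lines with VPA, by 2.16 in line 1 and by -1.20 in line 2, relative to the control array of the same line. It did so again with the combination, by 1.84 in line 1 and by -4.26 in line 2. Dmbt1 did so with VPA at a smaller size, by -0.38 in line 1 and by 0.63 in line 2. With 1 array per line and treatment the difference between lines was not tested for any of these. In each case the Cy5 level alone had the same signs as the ratio, with 0.99 and -1.18 for Reg3b with VPA, 1.00 and -4.09 for Reg3b with the combination, and -0.51 and 0.47 for Dmbt1 with VPA.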

How the results depend on the processing

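Of the members, Reg3a was called lower with the combination in 20 of 20 alternatives, Dmbt1 in 18, Reg3g higher in 16, Reg1 lower in 4 and Reg3b in 0. Leaving out 1 array at a time, the change lay from -3.72 to -2.50 for Reg3a, from -5.56 to -3.42 for Dmbt1, from 1.30 to 2.59 for Reg3g, from -6.73 to -2.59 for Reg1 and from -4.32 to 1.90 for Reg3b, which changed sign without line 2 of the combination (1.90). Between 1 and 4 of 5 members were called in these fits. Reg3g lost its call with only the 2 compared groups (1.94, adjusted p = 0.0575) and on Cy5 alone (1.73, adjusted p = 0.400). Reg1 gained one with treated ratios set against 0 (-4.40, adjusted p = 0.00924), with the line as replicate block (-4.66, adjusted p = 0.0158) and on Cy5 alone with that block (-4.06, adjusted p = 0.0313). On the ratios, the block, which pairs the samples of a line, changed no other member's call, while on Cy5 alone it also gave Reg3g a call (adjusted p = 0.0146).

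Counts over all genes moved more, and the causes were not tested. For CHIR99021, 216 genes were called, against 36 with the software's ratio, 0 with outlier spots kept in the background model (1568 at an unadjusted p under 0.05), 85 with a variance trend, 1084 with 2 groups only, 4303 against 0, 556 with the replicate block, 0 on Cy5 alone (1678 unadjusted) and 340 on Cy5 alone with the block. For VPA, 2090 became 1128 with median centring, 7023 against 0, 3742 with the replicate block, 832 on Cy5 alone and 3588 with the block added. For the combination, 2986 became 7793 against 0, 4816 with the replicate block, 1914 on Cy5 alone and 5277 with the block added. Leaving out 1 array gave 1 to 271 calls for CHIR99021, 120 to 2485 for VPA and 542 to 3247 for the combination. Higher calls made up 76.7% of VPA calls with median centring. Both Cy5 analyses, and one that also left out spots of outlying local background, were chosen after the data were seen. With 2 arrays per group and 1 spot per member, differences between lines have no test, and list calls can be lost when either control array is left out.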
